A study of Mus musculus with 18 samples.

Results

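The genes described here are 9 regulators of pre-mRNA splicing that are known to act in smooth muscle: Rbpms, Rbpms2, Mbnl1, Mbnl2, Qk, Ptbp1, Rbfox2, Celf1 and Celf2. They were chosen by name from a gene table of 57180 entries, with earlier results of these data known. All 9 were among the 15832 genes that passed the filter on low counts. Qk is listed in the table as Qki and was matched by its identifier, ENSMUSG00000062078. The cells were aortic smooth muscle cells cultured from the thoracic aorta of C57BL/6 mice, with no age in the labels. All had been transfected, either with a scramble siRNA that has no intended target or with an siRNA against ITGAV, the messenger of integrin αV. Each kind of cell was then left unstimulated, given TGF-β or given PDGF-BB, which makes 6 groups of 3 libraries. No siRNA sequence, dose or time could be taken from the labels, so loss of Itgav and any other effect of the siRNA cannot be told apart. No label says that the 3 libraries of a group came from different cultures. The p-values therefore cover the spread among these libraries, part of which may be technical.

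Splicing regulators bind short motifs in introns and exons and raise or lower the inclusion of nearby exons, depending on where they bind. RBPMS and its paralog RBPMS2 are known as drivers of the exon choices of contractile smooth muscle, while PTBP1 represses many muscle exons and is associated with the proliferative state. MBNL, QKI, RBFOX and CELF proteins act on overlapping sets of muscle exons, and several of them also regulate messenger stability or the splicing of their own transcripts.

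Deposited counts summed to between 17705072 and 21592916 a library, and levels are given as CPM, counts scaled to the library total, with an SD over 3 libraries. The targeted gene checked the labels: Itgav was between 300 and 553 CPM in the 9 scramble libraries and between 14.1 and 29.7 CPM in the 9 Itgav siRNA libraries. The summed level of 8 smooth muscle markers, all 8 of them tested, was 2090 to 2140 CPM in unstimulated scramble cells and 6620 to 7160 CPM with TGF-β. The same sum was 954 to 989 CPM with PDGF-BB. Most of it was Acta2 (means of 1070, 4240 and 394 CPM unstimulated, with TGF-β and with PDGF-BB) and Tagln (723, 2200 and 333 CPM). Myh11, Cnn1, Lmod1 and Smtn moved in the same directions. Des went the other way (8.61, 2.32 and 15.9 CPM), and Myocd rose with TGF-β but did not fall with PDGF-BB (2.55, 4.48 and 2.68 CPM). With the Itgav siRNA the sum was 991 to 1110 CPM unstimulated, 3220 to 3380 CPM with TGF-β and 373 to 382 CPM with PDGF-BB. The defining marker Myh11 was low, with group means from 5.3 to 30.8 CPM. A list of 10 interferon response genes summed to 117 to 394 CPM over the scramble libraries, but to 6550 to 7520 CPM in unstimulated Itgav siRNA cells, 736 to 821 CPM with TGF-β and 3990 to 6100 CPM with PDGF-BB. Scramble unstimulated library 1 had the lowest of the 3 sums of its group, and scramble PDGF-BB library 1 stood apart from libraries 2 and 3 on the fourth principal component (23.6 against 0.879 and 5.05). Summed endothelial markers, all 8 tested, ranged from 72.1 to 131 CPM over all libraries, with the highest value in scramble cells with TGF-β. In that group Erg had a mean of 45.5 CPM against 7.04 CPM unstimulated, and Vwf 2.86 against 2.07 CPM. Pecam1, Cdh5, Kdr, Tie1, Tek and Emcn were lower there than unstimulated. The 6 macrophage markers, 4 of them tested, summed to 7.4 to 20.5 CPM. Summed adventitial fibroblast markers, all 6 tested, ranged from 31.8 to 149 CPM and were highest in scramble cells with PDGF-BB. Most of that sum was Cd34, at a mean of 128 CPM there against 77.6 CPM in unstimulated scramble cells, and Dpt was also higher (9.09 against 1.75 CPM). Pdgfra (7.26 against 12.4 CPM), Clec3b (0.653 against 1.95 CPM), Lum and Pi16 were lower. The 5 mesothelial markers ranged from 17.5 to 125 CPM, the 3 tested of 7 neuronal and glial markers from 99.4 to 319 CPM, and the 2 tested of 6 skeletal and cardiac muscle markers from 6.21 to 16.3 CPM. The part of these shifts in the results on the regulators was not tested, and in bulk RNA fewer cells of a type and less RNA per cell cannot be told apart.

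The regulators were compared with one another only per length, as TPM, transcript counts divided by transcript length and scaled to their sum. In unstimulated scramble cells the order by mean TPM was Mbnl1 (235, lowest to highest library 221 to 244), Mbnl2 (233, 223 to 242), Ptbp1 (127, 123 to 131), Rbfox2 (76.7, 72.1 to 82.6), Rbpms (76.4, 73.7 to 78.8), Qk (57.3, 51.8 to 61.8), Celf2 (57.0, 53.5 to 59.1), Rbpms2 (30.4, 28.5 to 32.2) and Celf1 (26, 25.2 to 26.8). Mbnl1 and Mbnl2 overlapped between libraries, as did Rbfox2 and Rbpms, and Qk and Celf2. Mbnl1, Mbnl2 and Ptbp1 held the first 3 places by mean in all 6 groups. The place of Mbnl2 rests mostly on Mbnl2-205, a model with no coding sequence in the GENCODE M21 annotation. That model held a mean of 69.5 to 79.2% of Mbnl2 counts over the groups. Rbpms2 was eighth by mean in the 3 scramble groups and last in the 3 Itgav siRNA groups, where its mean TPM was 5.07 unstimulated, 8.56 with TGF-β and 6.04 with PDGF-BB.

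**Figure D1:**
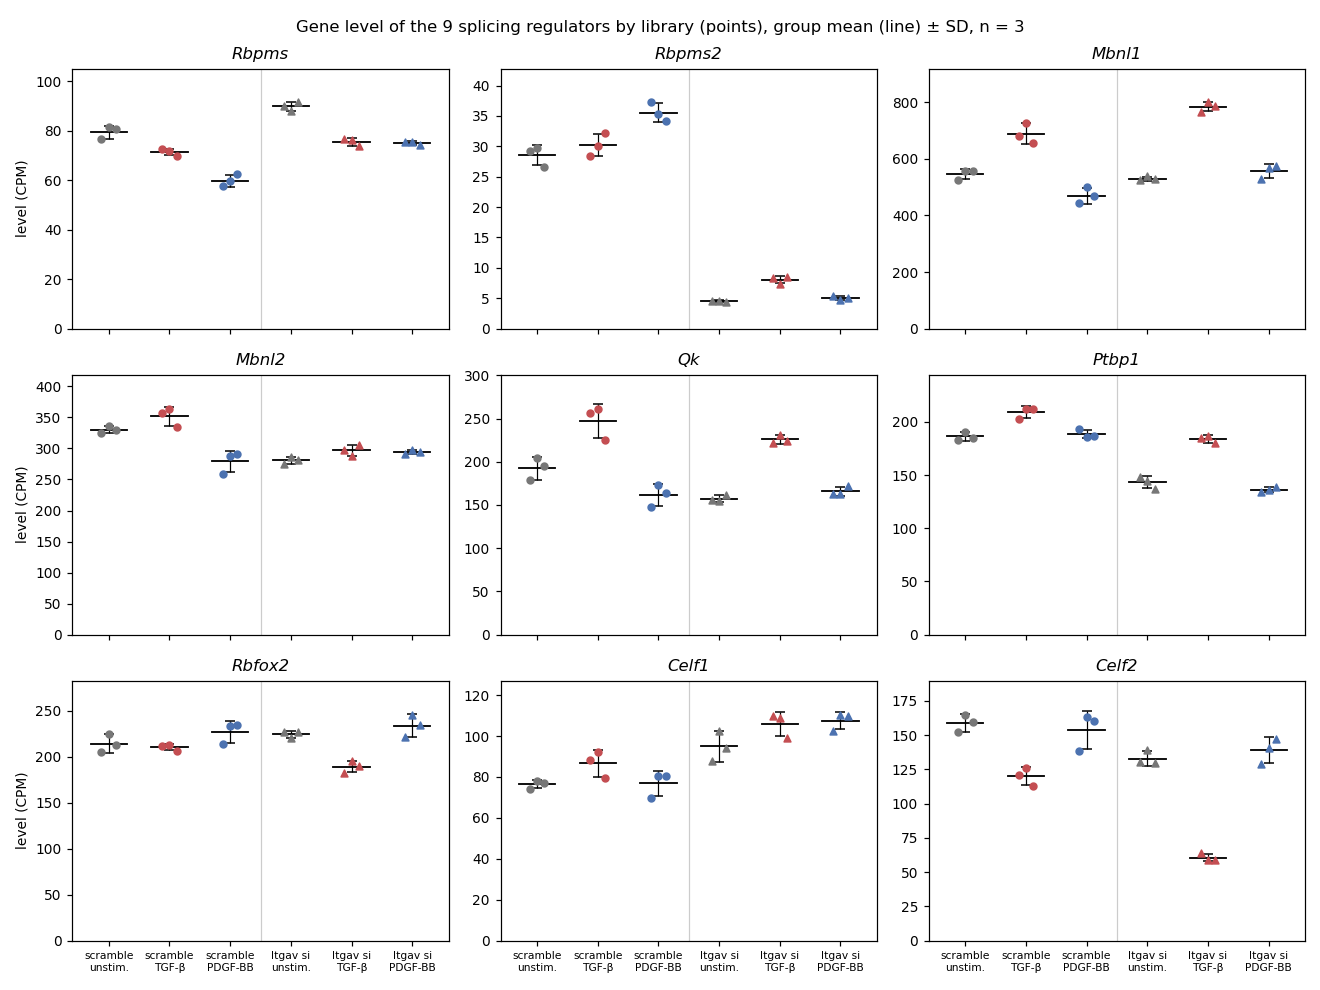
Level in CPM (vertical axis, from 0) of each of the 9 splicing regulators in the 6 groups (horizontal axis), with circles for scramble and triangles for Itgav siRNA libraries, and with bars for the mean ± SD over 3 libraries. All 9 Itgav siRNA libraries lie far below the scramble libraries for Rbpms2, and the 3 TGF-β libraries with Itgav siRNA are the lowest for Celf2.

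The number of regulators called stands here beside the share of all genes called in the same comparison. In scramble cells, TGF-β changed 6 of 9, against 48.3% of all genes tested: Mbnl1, Qk, Ptbp1 and Celf1 rose (23.4% of all genes rose), and Rbpms and Celf2 fell (24.8% fell). PDGF-BB changed 5 of 9, against 36.1%: Rbpms2 rose (16.9%), and Rbpms, Mbnl1, Mbnl2 and Qk fell (19.2%). Between the TGF-β and PDGF-BB groups 8 of 9 differed, against 56.9%, with 6 higher with TGF-β (28%) and 2 lower (29%). The Itgav siRNA changed 7 of 9 in unstimulated cells, against 53.4%, with 2 higher (25.9%) and 5 lower (27.5%). With TGF-β it changed 7 of 9, against 48.4%, with 2 higher (24.1%) and 5 lower (24.3%), and with PDGF-BB 6 of 9, against 59.3%, with 3 higher (29.4%) and 3 lower (29.9%). Within Itgav siRNA cells TGF-β changed 8 of 9, against 57.5%, with 5 higher (27.9%) and 3 lower (29.6%). PDGF-BB changed 2 of 9 there, against 36.4%, with 1 higher (17.2%) and 1 lower (19.2%). A share near that of all genes says nothing about the members, and with 9 of them no difference between the shares was tested. The median log2 fold change over the 9 was 0.09 for TGF-β in scramble cells, against -0.01 for all genes, and -0.23 for the Itgav siRNA in unstimulated cells, against 0.01. Many of these comparisons share libraries, so the values below are set side by side and are not independent. Fold changes are log2 values with standard errors, and a gene was called where the edgeR quasi-likelihood test gave an adjusted p (Benjamini-Hochberg) under 0.05.

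**Figure D2:**
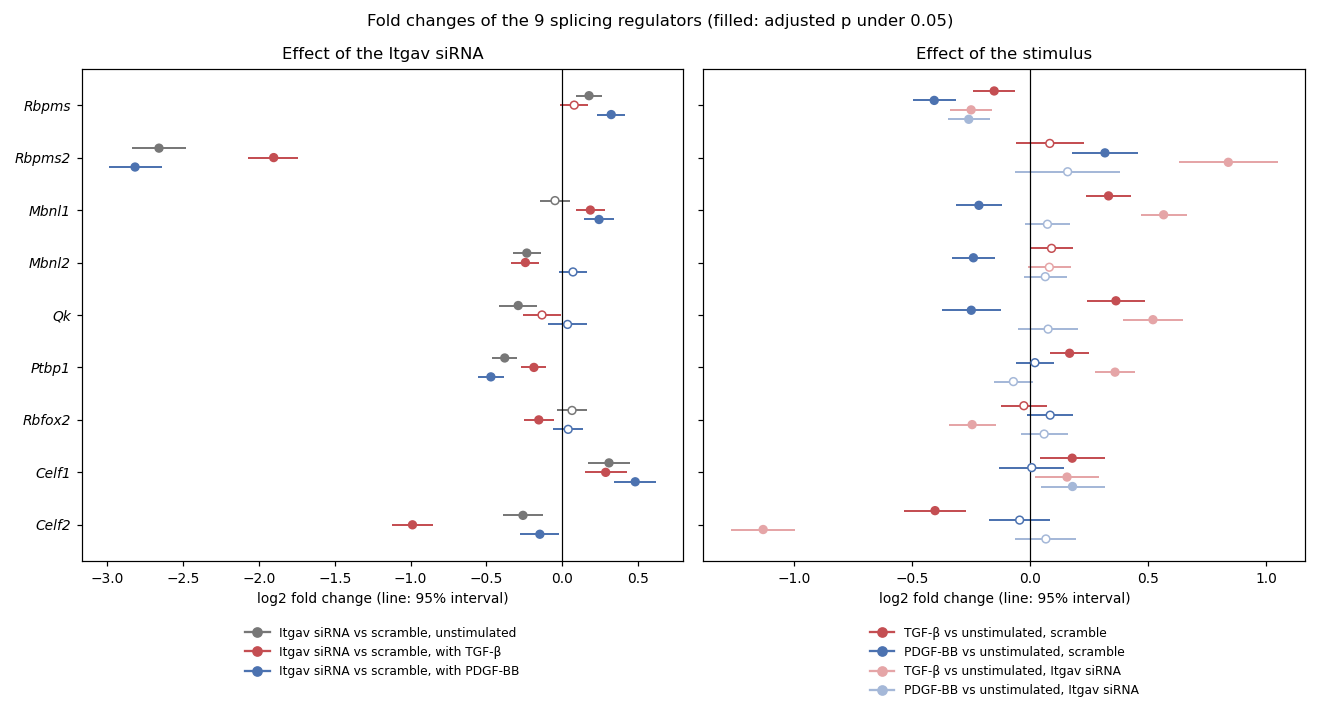
Log2 fold change (horizontal axis) of each of the 9 splicing regulators (vertical axis), with lines for the 95% interval and filled points for an adjusted p under 0.05, for the Itgav siRNA against scramble in each condition (left) and for each stimulus against unstimulated cells (right). Rbpms2 has the lowest values on the left, from -2.82 to -1.90, and Celf2 the lowest on the right, at -1.13 for TGF-β in Itgav siRNA cells.

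Rbpms2 fell strongly with the Itgav siRNA in all 3 conditions. It encodes an RNA-binding protein of visceral and vascular smooth muscle and lies at chr9:65629648-65660528 on the plus strand (GRCm38, as are all positions here). In unstimulated cells it was 29.2, 29.7 and 26.7 CPM with scramble and 4.62, 4.57 and 4.35 CPM with the Itgav siRNA. In TGF-β cells the level was 28.5, 30.1 and 32.1 CPM with scramble and 8.35, 7.34 and 8.56 CPM with the Itgav siRNA. In PDGF-BB cells it was 37.2, 35.3 and 34.2 CPM with scramble and 5.33, 4.74 and 5.06 CPM with the Itgav siRNA. Every Itgav siRNA library was below every scramble library, with no level in between. The fall was 6.32-fold in unstimulated cells (log2 fold change -2.66 ± 0.09, adjusted p = 3e-16). It was 3.74-fold with TGF-β (-1.90 ± 0.08, adjusted p = 1.7e-14) and 7.05-fold with PDGF-BB (-2.82 ± 0.08, adjusted p = 4.6e-17). By size it ranked 244, 552 and 256 among the 15832 genes tested in these 3 comparisons. No other member changed as much with the siRNA; the next in size was Celf2 with TGF-β, described below. The stimuli moved Rbpms2 far less in scramble cells: PDGF-BB raised it (0.32 ± 0.07, adjusted p = 0.00084), and with TGF-β the difference of 0.08 ± 0.07 did not pass (adjusted p = 0.34). In Itgav siRNA cells TGF-β raised it 1.79-fold, from 4.51 ± 0.14 to 8.08 ± 0.65 CPM (0.84 ± 0.10, adjusted p = 2.4e-07). The siRNA effect thus differed between TGF-β and unstimulated cells by 0.76 ± 0.12 (adjusted p = 7.7e-05). This test of a difference called 5 of 9 regulators against 23.2% of all genes, 3 of them positive (12.2%) and 2 negative (11%). For PDGF-BB against unstimulated cells the difference for Rbpms2 was -0.16 ± 0.13 and did not pass (adjusted p = 0.43).

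Rbpms, the paralog of Rbpms2 at chr8:33782643-33929863 on the minus strand, did not follow it. Its level was 76.5, 81.3 and 80.5 CPM in unstimulated scramble cells, and 90.2, 88.1 and 91.4 CPM with the Itgav siRNA. With TGF-β it was 72.5, 71.9 and 70.0 CPM with scramble and 76.7, 76.3 and 73.7 CPM with the Itgav siRNA. With PDGF-BB it was 57.5, 59.7 and 62.4 CPM with scramble and 75.4, 75.4 and 74.2 CPM with the Itgav siRNA. The siRNA groups were above their scramble groups with no overlap in each condition. The rise passed in unstimulated cells (0.18 ± 0.04, adjusted p = 0.0013) and with PDGF-BB (0.32 ± 0.04, adjusted p = 1.4e-06). With TGF-β the difference of 0.08 ± 0.04 did not pass (adjusted p = 0.14, 95% interval -0.01 to 0.17). Both stimuli lowered Rbpms in scramble cells, TGF-β by a log2 fold change of -0.15 ± 0.04 (adjusted p = 0.0057) and PDGF-BB by -0.41 ± 0.04 (adjusted p = 1.4e-07). They lowered it in Itgav siRNA cells as well (-0.25, adjusted p = 3.2e-05, and -0.26, adjusted p = 4.3e-05). The siRNA effect on Rbpms was not shown to differ between conditions (adjusted p = 0.28 for TGF-β and 0.1 for PDGF-BB, each against unstimulated cells).

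Mbnl1, at chr3:60472830-60629750 on the plus strand, encodes a muscleblind protein that promotes adult exon choices in muscle. It was raised by TGF-β and lowered by PDGF-BB in scramble cells. Its level was 526, 558 and 557 CPM unstimulated, 683, 728 and 656 CPM with TGF-β, and 443, 499 and 469 CPM with PDGF-BB. The 3 groups did not overlap, with TGF-β highest. The change was 0.33 ± 0.05 with TGF-β (adjusted p = 3.3e-06) and -0.22 ± 0.05 with PDGF-BB (adjusted p = 0.00084). With the Itgav siRNA the levels were 524, 538 and 528 CPM unstimulated, 768, 800 and 786 CPM with TGF-β, and 529, 568 and 575 CPM with PDGF-BB. All 3 TGF-β libraries with Itgav siRNA were above those with scramble, whereas the unstimulated groups overlapped. The siRNA raised Mbnl1 with TGF-β (0.19 ± 0.05, adjusted p = 0.002) and with PDGF-BB (0.24 ± 0.05, adjusted p = 0.00011), and the value in unstimulated cells was -0.05 (adjusted p = 0.42). The siRNA effect differed from that in unstimulated cells by 0.23 ± 0.07 with TGF-β (adjusted p = 0.012) and by 0.29 ± 0.07 with PDGF-BB (adjusted p = 0.0037). The PDGF-BB test of a difference called 3 of 9 regulators, all positive, against 18.8% of all genes, 9.51% positive and 9.32% negative.

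Mbnl2, the second muscleblind gene at chr14:120275669-120431697 on the plus strand, was 325, 336 and 330 CPM in unstimulated scramble cells and 275, 287 and 282 CPM with the Itgav siRNA. Given TGF-β, the cells had 356, 364 and 334 CPM with scramble and 297, 289 and 306 CPM with the Itgav siRNA. Given PDGF-BB, they had 260, 288 and 290 CPM with scramble and 291, 297 and 294 CPM with the Itgav siRNA. The siRNA libraries were all lower in unstimulated and TGF-β cells, and with PDGF-BB they were level with or just above the highest scramble library. The siRNA lowered Mbnl2 unstimulated (-0.23, adjusted p = 0.00013) and with TGF-β (-0.24, adjusted p = 9.3e-05), while with PDGF-BB its value was 0.07 (adjusted p = 0.17). The effect with PDGF-BB differed from that in unstimulated cells by 0.30 ± 0.06 (adjusted p = 0.0016). PDGF-BB lowered Mbnl2 in scramble cells (-0.24, adjusted p = 0.00017), and in Itgav siRNA cells the value was 0.06 (adjusted p = 0.28). TGF-β did not pass for Mbnl2 in scramble cells (0.09 ± 0.04, adjusted p = 0.097), although without scramble TGF-β library 3 the adjusted p was 0.024.

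Qk, at chr17:10202601-10319854 on the minus strand, encodes the QKI STAR-family proteins, which bind ACUAA motifs and exist in forms with different carboxyl ends. In scramble cells the gene's total rose with TGF-β and fell with PDGF-BB. It was 178, 204 and 195 CPM unstimulated, 256, 262 and 225 CPM with TGF-β, and 148, 173 and 164 CPM with PDGF-BB. The TGF-β libraries were all above, and the PDGF-BB libraries all below, the unstimulated ones. TGF-β raised Qk (0.36 ± 0.06, adjusted p = 2.8e-05) and PDGF-BB lowered it (-0.25 ± 0.06, adjusted p = 0.0024). With the Itgav siRNA it was 156, 155 and 162 CPM unstimulated, 222, 231 and 224 CPM with TGF-β, and 163, 163 and 172 CPM with PDGF-BB. Only the unstimulated groups did not overlap between the siRNAs. The siRNA lowered Qk there (-0.29 ± 0.06, adjusted p = 0.00035). With TGF-β the value was -0.13 ± 0.06 (adjusted p = 0.075), which passed with no filter on low counts (adjusted p = 0.022) and without scramble TGF-β library 3 (-0.20, adjusted p = 0.0077). With PDGF-BB it was 0.04 (adjusted p = 0.62), and this differed from the unstimulated effect by 0.33 ± 0.09 (adjusted p = 0.011).

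Ptbp1, at chr10:79854427-79864771 on the plus strand, encodes the polypyrimidine tract-binding protein that represses muscle and neuronal exons. It fell with the Itgav siRNA in every condition. It was 183, 191 and 185 CPM in unstimulated scramble cells and 148, 145 and 137 CPM with the Itgav siRNA. TGF-β cells had 203, 212 and 213 CPM with scramble and 185, 187 and 180.0 CPM with the Itgav siRNA. PDGF-BB cells had 193, 186 and 187 CPM with scramble and 134, 136 and 139 CPM with the Itgav siRNA. No siRNA library reached its scramble group. The log2 fold changes were -0.38 ± 0.04 unstimulated (adjusted p = 5e-08), -0.19 ± 0.04 with TGF-β (adjusted p = 5e-04) and -0.47 ± 0.04 with PDGF-BB (adjusted p = 1.4e-09). TGF-β raised Ptbp1 both with scramble (0.17 ± 0.04, adjusted p = 0.0013) and with the Itgav siRNA (0.36 ± 0.04, adjusted p = 7.5e-08), and PDGF-BB passed in neither (0.02 and -0.07). The siRNA effect with TGF-β differed from that in unstimulated cells by 0.19 ± 0.06 (adjusted p = 0.016). That call was lost without any 1 of 5 libraries, with adjusted p from 0.05 to 0.078: scramble unstimulated 2, Itgav siRNA unstimulated 3, scramble TGF-β 1 and Itgav siRNA TGF-β 1 and 2. It was also lost with no filter on low counts (0.18, adjusted p = 0.093). Ptbp1 overlaps E130317F20Rik and Plppr3 on the other strand, whose counts came to 2.52% and 0.835% of its own. Whether counting used the strand is not stated in the labels.

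Rbfox2, at chr15:77078990-77307004 on the minus strand, encodes a protein that binds GCAUG motifs, and its group means lay between 189 and 234 CPM. In scramble cells it was 205, 225 and 213 CPM unstimulated, 211, 213 and 207 CPM with TGF-β, and 214, 234 and 235 CPM with PDGF-BB. With the Itgav siRNA it was 227, 220.0 and 227 CPM unstimulated, 183, 195 and 190 CPM with TGF-β, and 221, 246 and 235 CPM with PDGF-BB. Only the TGF-β group with Itgav siRNA stood apart, below all the other libraries. There the siRNA lowered Rbfox2 by a log2 fold change of -0.15 ± 0.05 (adjusted p = 0.011), against 0.07 in unstimulated cells (adjusted p = 0.25) and 0.04 with PDGF-BB (adjusted p = 0.48). TGF-β lowered it in Itgav siRNA cells (-0.25 ± 0.05, adjusted p = 0.00013), and in scramble cells the value was -0.03 (adjusted p = 0.67). The siRNA effects with TGF-β and in unstimulated cells differed by -0.22 ± 0.07 (adjusted p = 0.022). Without Itgav siRNA TGF-β library 1 the siRNA effect with TGF-β had an adjusted p of 0.052 and the difference one of 0.053, and the difference was also lost without scramble unstimulated library 1 (adjusted p = 0.064).

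Celf2, at chr2:6539694-7509563 on the minus strand, encodes a CELF protein that binds UG-rich elements and often opposes MBNL proteins on shared exons. It was 152, 165 and 160 CPM in unstimulated scramble cells and 130, 139 and 129 CPM with the Itgav siRNA. With TGF-β it was 121, 126 and 113 CPM with scramble and 63.8, 59.2 and 58.8 CPM with the Itgav siRNA. With PDGF-BB it was 138, 164 and 160 CPM with scramble and 129, 141 and 148 CPM with the Itgav siRNA. The TGF-β libraries with Itgav siRNA were below all 15 others, and the 2 PDGF-BB groups overlapped. TGF-β lowered Celf2 in scramble cells (-0.40 ± 0.06, adjusted p = 1.2e-05) and 2.19-fold in Itgav siRNA cells (-1.13 ± 0.07, adjusted p = 1.3e-12). The siRNA lowered it in unstimulated cells (-0.26 ± 0.06, adjusted p = 0.0013) and 1.98-fold with TGF-β (-0.99 ± 0.07, adjusted p = 3.6e-11), and these effects differed by -0.73 ± 0.09 (adjusted p = 3e-06). With PDGF-BB the siRNA value was -0.15 ± 0.06 (adjusted p = 0.048). That call was lost without scramble PDGF-BB library 2 or 3 or Itgav siRNA PDGF-BB library 1 or 2 (adjusted p from 0.078 to 0.24), and with DESeq2 (adjusted p = 0.051). PDGF-BB passed for Celf2 in neither kind of cell.

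Celf1, at chr2:90940382-91019497 on the plus strand, encodes the other CELF protein of this set and moved against Celf2 with the siRNA. It was 74.3, 78.3 and 77.3 CPM in unstimulated scramble cells and 87.9, 103 and 94.3 CPM with the Itgav siRNA. Its level with TGF-β was 88.1, 92.3 and 79.6 CPM with scramble and 110, 109 and 99.2 CPM with the Itgav siRNA. Its level with PDGF-BB was 69.9, 80.3 and 80.7 CPM with scramble and 103, 111 and 110 CPM with the Itgav siRNA. All siRNA libraries were above their scramble groups. The rise was 0.31 ± 0.07 unstimulated (adjusted p = 0.00043), 0.29 ± 0.07 with TGF-β (adjusted p = 0.00098) and 0.48 ± 0.07 with PDGF-BB (adjusted p = 1.6e-06), and it was not shown to differ between conditions (adjusted p = 0.9 and 0.21). The effects of the stimuli on Celf1 were smaller and depended on single libraries. TGF-β in scramble cells gave 0.18 ± 0.07 (adjusted p = 0.032), and without scramble unstimulated library 1 or 3 or scramble TGF-β library 1 or 2 the adjusted p was between 0.053 and 0.16. In Itgav siRNA cells TGF-β gave 0.16 (adjusted p = 0.047) and PDGF-BB 0.18 (adjusted p = 0.036), each with groups that overlapped. These calls were lost without Itgav siRNA unstimulated library 1 or 3, TGF-β library 1 or 2, or PDGF-BB library 2 or 3 (adjusted p from 0.1 to 0.26).

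The transcript table gives estimated counts for the regulators' own isoforms, and a change in the share of a gene's transcripts was tested over 9306 genes. The Itgav siRNA changed transcript usage of Mbnl1 and Qk in unstimulated cells, against 5.92% of all genes tested, of Qk with TGF-β, against 3.17%, and of Mbnl1 and Qk with PDGF-BB, against 7.15%. TGF-β changed usage of Mbnl1 in scramble cells, against 4.53%, and Mbnl1 and Qk differed in usage between TGF-β and PDGF-BB, against 5.17%. PDGF-BB against unstimulated scramble cells called 0 of 9 with edgeR, against 1.93%, with 3 at an unadjusted p under 0.05, and 0 with limma, against 1.44%. Every edgeR call here was also made by limma's diffSplice, whose adjusted p is given second.

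Qk had the clearest shift. Of its 6 listed transcripts 3 reached a share of 10% in a group: Qk-202 (ENSMUST00000097414), Qk-204 (ENSMUST00000233645) and Qk-206 (ENSMUST00000233828). In the GENCODE M21 annotation Qk-202 and Qk-206 encode 319 residues with the same last bases, and Qk-204 encodes 341. The ends of the reading frames are shown because the QKI proteins differ there, with the stop codon in capitals and the 27 bases before it in lower case.
Qk-202: ttaggtatggctttcccaacgaaaggcTAA
Qk-206: ttaggtatggctttcccaacgaaaggcTAA
Qk-204: accgcagaccgagccgccaccggcaacTAA
The share of Qk counts held by Qk-206 was 30.5, 29.9 and 29.3% in unstimulated scramble cells and 14.6, 13.7 and 14.4% with the Itgav siRNA. With TGF-β it was 32.6, 32.3 and 32.8% with scramble and 16.7, 14.3 and 17.2% with the Itgav siRNA. With PDGF-BB it was 27.3, 27.5 and 28.0% with scramble and 12.2, 11.6 and 11.8% with the Itgav siRNA. The share was lower in every siRNA library than in any scramble library. Qk-202 went the other way, from 15.8, 19.7 and 18.3% to 36.5, 42.9 and 43.5% unstimulated. Its share went from 18.8, 15.9 and 14.1% to 29.7, 35.6 and 31.3% with TGF-β, and from 19.1, 26.4 and 22.7% to 43.3, 44.9 and 44.6% with PDGF-BB. No scramble library reached a siRNA library of the same condition. Qk-204 changed less, from a mean of 48.5 to 42.0% unstimulated, 46.3 to 47.6% with TGF-β and 45.9 to 39.8% with PDGF-BB.

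The gene-level usage test gave an adjusted p for the siRNA of 6.9e-13 and 8.3e-13 (edgeR and limma) in unstimulated cells, 6.1e-11 and 8.6e-12 with TGF-β, and 4.3e-12 and 8.3e-12 with PDGF-BB. These 3 calls held when any 1 library was left out, with a highest adjusted p of 6.8e-08. The level of Qk-206 itself fell by 1.39 ± 0.08 on the log2 scale in unstimulated cells (adjusted p = 7.5e-09), by 1.16 with TGF-β (adjusted p = 4.5e-08) and by 1.21 with PDGF-BB (adjusted p = 2.6e-08). The level of Qk-202 rose by 0.87 (adjusted p = 0.0022), 0.84 (adjusted p = 0.0032) and 0.96 (adjusted p = 8e-04). The usage difference between TGF-β and PDGF-BB for Qk was less firm (adjusted p = 0.015 and 0.025) and was lost without scramble TGF-β library 2 or scramble PDGF-BB library 2 or 3, with an adjusted p of up to 0.12.

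Grouped by coding end and counted per length, the 319-residue models held 56.7, 59.7 and 57.7% of Qk in unstimulated scramble cells and 60.6, 65.6 and 66.9% with the Itgav siRNA. With TGF-β the shares were 61.3, 58.0 and 57.3% against 56.2, 59.2 and 58.0%, which overlapped. With PDGF-BB they were 56.3, 63.6 and 60.7% against 64.5, 65.3 and 65.3%. The exchange between Qk-202 and Qk-206 thus left the summed share of this coding end much closer to its scramble value than either transcript was, and the sums were not tested. Among the 3 named models Qk-202 has 474 bases of its own, all in its first exon (chr17:10319381-10319854), and Qk-206 has 3170 (chr17:10210189-10213358), all at the 3′ end of its last exon and with no junction of its own. The estimates of these models rest on reads over those bases and on how reads of stretches shared between models were divided. Qk-202 is typed in M21 as a target of nonsense-mediated decay. The remaining 325-residue model, Qk-201, held a mean of 2.83 to 4.8% per length over the 6 groups.

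**Figure D3:**
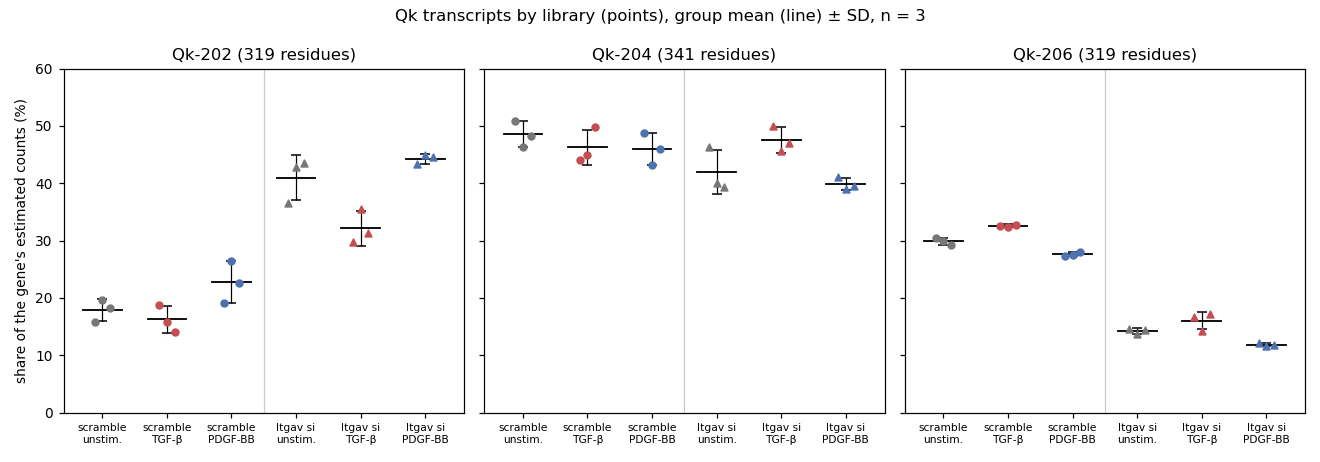
Share of the Qk gene's estimated counts (vertical axis, percent) held by 3 of its transcripts in the 6 groups (horizontal axis), with a point for each library and bars for the mean ± SD over 3. Qk-202 is higher and Qk-206 lower in all 9 Itgav siRNA libraries, while Qk-204 moves less, from 48.5 to 42.0% in unstimulated cells.

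Mbnl1 has a pair of short alternative exons whose shares moved in opposite directions. They are shown in capitals with 15 flanking bases of the spliced transcript in lower case, because the usage calls turned on models that differ in them. The exon of 54 bases (chr3:60614683-60614736, plus strand) is part of Mbnl1-214, and that of 36 bases (chr3:60621423-60621458) of Mbnl1-201.
Mbnl1 exon of 54 bases: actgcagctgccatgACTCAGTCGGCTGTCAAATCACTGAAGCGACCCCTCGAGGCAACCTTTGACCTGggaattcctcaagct
Mbnl1 exon of 36 bases: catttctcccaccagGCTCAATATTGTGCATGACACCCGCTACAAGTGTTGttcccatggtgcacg
Counted per length, transcripts with the 54-base exon held 54.2, 52.6 and 56.4% in unstimulated scramble cells, 45.3, 37.8 and 49.3% with TGF-β and 58.3, 47.2 and 60.5% with PDGF-BB. With the Itgav siRNA the shares were 43.6, 51.7 and 44.7% unstimulated, 42.2, 38.9 and 43.5% with TGF-β and 44.0, 39.0 and 42.5% with PDGF-BB. TGF-β libraries of scramble cells and all siRNA libraries were below the unstimulated scramble group, and the 2 siRNA kinds overlapped with TGF-β. The 36-base exon was at 44.8, 46.2 and 42.8%, 53.7, 61.0 and 49.7%, and 41.1, 52.3 and 38.6% in scramble cells unstimulated, with TGF-β and with PDGF-BB. With the Itgav siRNA it was at 55.5, 47.5 and 54.4%, 57.0, 60.5 and 55.3%, and 55.3, 59.3 and 56.1%. In M21 3 models of Mbnl1 hold both exons, but in every library the 2 shares were close to complements of each other. Their opposite movement is therefore not separate evidence.

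The usage test for Mbnl1 gave adjusted p-values of 6.4e-09 and 1.4e-10 (edgeR and limma) for the siRNA with PDGF-BB, which held without any 1 library (highest 3.9e-05). In unstimulated cells the siRNA gave 0.0023 and 0.00067. Without scramble unstimulated library 1 or 3 or Itgav siRNA unstimulated library 3 the edgeR value was 0.053 to 0.12. With TGF-β the siRNA gave 0.95 and 0.83. TGF-β in scramble cells gave 0.0022 and 7.1e-05, and was lost without scramble unstimulated library 1 or 3 or scramble TGF-β library 1 or 2 (adjusted p up to 0.38). TGF-β against PDGF-BB gave 0.00023 and 3.1e-05, and was lost without scramble TGF-β library 2 (adjusted p = 0.14). Mbnl1-214 (ENSMUST00000193517), the largest model by count in unstimulated scramble cells, went from 47.7, 38.1 and 49.6% to 31.7, 29.4 and 28.6% of Mbnl1 counts with the siRNA and PDGF-BB (adjusted p = 0.0015). Mbnl1-201 (ENSMUST00000099087) went from a mean of 8.52 to 13.2% there (adjusted p = 0.020), and from 8.1 to 12.1% in unstimulated cells (adjusted p = 0.041). The other named models were Mbnl1-203 and Mbnl1-218, neither of which passed the transcript-level usage test in any of the 6 comparisons.

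**Figure D4:**
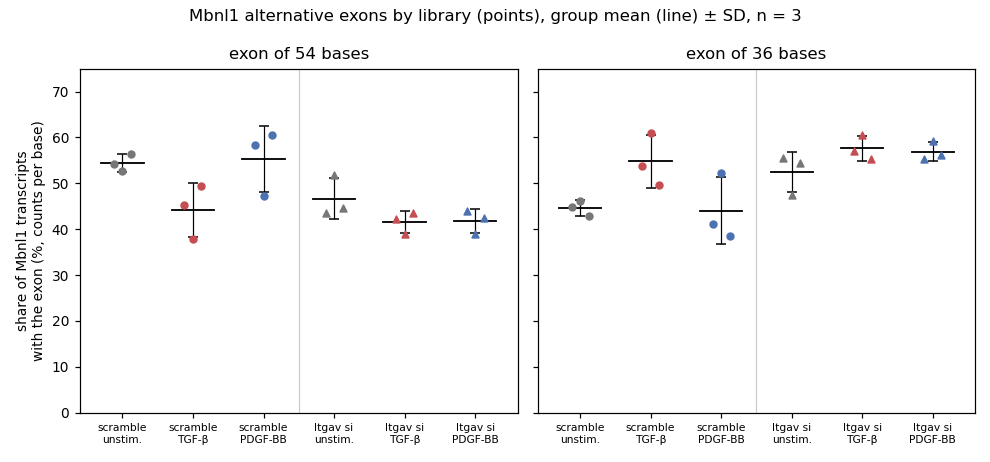
Share of Mbnl1 transcripts, in counts per base, that hold the exon of 54 bases (left) or of 36 bases (right) on the vertical axis, for the 6 groups on the horizontal axis, with a point for each library and bars for the mean ± SD over 3. In unstimulated scramble cells the 54-base exon is at 54.4 ± 1.88% and in TGF-β cells at 44.1 ± 5.85%, and the 36-base exon lies the other way.

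The isoforms of the other regulators gave no usage call with edgeR when all libraries were kept under the filter used here. Celf2-202 (ENSMUST00000100429), which encodes 484 residues, held 33.7, 31.3 and 28.9% of Celf2 counts in unstimulated scramble cells and 14.3, 24.5 and 19.5% with the Itgav siRNA. It went from 23.4, 23.7 and 28.0% to 10.9, 7.54 and 16.6% with TGF-β, and from 32.4, 23.1 and 35.1% to 14.6, 17.7 and 18.2% with PDGF-BB. The groups did not overlap in any of the 3 conditions, but the gene's usage test did not pass (edgeR adjusted p = 0.077, 0.14 and 0.28). For the siRNA in unstimulated cells it did pass with a filter of 1 CPM on transcripts and without scramble unstimulated library 3. The level of Celf2-202 fell by 0.96 ± 0.24 on the log2 scale in unstimulated cells (adjusted p = 0.01), by 2.08 ± 0.26 with TGF-β (adjusted p = 2.8e-05) and by 1.01 ± 0.24 with PDGF-BB (adjusted p = 0.0063). Celf2-206 (ENSMUST00000114934), with 526 residues, was at 41.2 and 49.7%, 46.0 and 58.6%, and 40.0 and 50.2% with scramble and Itgav siRNA in the 3 conditions. Celf2-202 has 2 bases and no junction of its own among the named models, so its estimate rests on how shared reads were divided. For the siRNA with PDGF-BB the usage test of Rbfox2 passed with limma (adjusted p = 0.010) and with edgeR under the 1 CPM filter, which also called it for the siRNA with TGF-β. The 145-base form of one of its exons (chr15:77097940-77098084) was at 70.4, 68.0 and 71.5% per length there with scramble, and at 63.3, 62.2 and 62.6% with the Itgav siRNA. The 78-base exon of Ptbp1 (chr10:79860117-79860194) lay between 55.4 and 67.6% in all 18 libraries. Rbpms2-201 held a mean of 84.7 to 93.9% of Rbpms2 counts, and its level fell with the siRNA as the gene did (-2.63, -1.83 and -2.92). Rbpms2-202 held the rest of note, at 4.43 to 12.1% by mean.

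Rbpms had 4 such transcripts, and Rbpms-203 led in every group with a mean of 51.9 to 59.6%, ahead of Rbpms-213 at 16.0 to 24.5%. Rbpms-201 and Rbpms-202 held 7.52 to 12.5% and 11.4 to 16.7%. The leading Mbnl2 transcript by count, Mbnl2-205 at 69.5 to 79.2%, is a model of 2 exons with no coding sequence in M21, and the coding Mbnl2-204 held 13.6 to 18.9%. Ptbp1-216, which has the 78-base exon, held 51.2 to 59.4% and Ptbp1-206 30.3 to 34.8%. Rbfox2-204 held 83.5 to 88.6% and Celf2-214 7.31 to 14.9%. Celf1 was split between 7 transcripts, Celf1-201 to Celf1-205, Celf1-207 and Celf1-208, and none held a mean above 24.8%. Their shares varied widely within groups: Celf1-205 was at a mean of 20.3 ± 12.2% in unstimulated scramble cells.

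Of the members' 9 listed paralogs 7 were tested, all but Rbfox3 and Celf6. TGF-β in scramble cells changed 3 of 7 (1 up, 2 down), against 48.3% of all genes, and PDGF-BB 2 of 7 (1 up, 1 down), against 36.1%. The siRNA changed 5 of 7 in unstimulated cells (1 up, 4 down), against 53.4%, 4 of 7 with TGF-β (2 up, 2 down), against 48.4%, and 2 of 7 with PDGF-BB (1 up, 1 down), against 59.3%. Ptbp2, the PTB protein known from neurons, rose with the siRNA in all 3 conditions, from 23 to 30.7 CPM unstimulated (0.42, adjusted p = 2.3e-05), from 24.6 to 29.6 CPM with TGF-β (0.26, adjusted p = 0.0033) and from 21.2 to 33.5 CPM with PDGF-BB (0.66, adjusted p = 3.3e-08). Ptbp1 fell in the same comparisons, as given above. Celf5 fell with the siRNA in all 3 conditions, and by more than Celf2 in each. It went from 23.8 to 10.8 CPM unstimulated (-1.14, adjusted p = 4.4e-09), from 12.2 to 4.07 CPM with TGF-β (-1.58, adjusted p = 8.7e-10) and from 25.1 to 10.8 CPM with PDGF-BB (-1.21, adjusted p = 1.1e-09). Ptbp3 rose with TGF-β (0.28, adjusted p = 0.0015) and fell with PDGF-BB (-0.35, adjusted p = 0.00032) and with the siRNA in unstimulated (-0.30, adjusted p = 0.00074) and TGF-β cells (-0.44, adjusted p = 1.3e-05). Celf4 rose with PDGF-BB (0.76, adjusted p = 4.2e-05) and fell with the siRNA in unstimulated cells (-0.47, adjusted p = 0.006). Mbnl3 fell with TGF-β (-1.18, adjusted p = 0.021) and with the siRNA in unstimulated cells (-1.14, adjusted p = 0.021). Rbfox1 was near the limit of detection, at means of 0.192 and 1.14 CPM with scramble and Itgav siRNA in TGF-β cells (2.55, adjusted p = 0.00074).

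Among 46 other splicing factors, 45 of them tested, TGF-β changed 25 (15 up, 10 down) and PDGF-BB 13 (8 up, 5 down) in scramble cells. The siRNA changed 30 in unstimulated cells (12 up, 18 down), 21 with TGF-β (12 up, 9 down) and 28 with PDGF-BB (12 up, 16 down). These counts stand beside the same shares of all genes as above, and the list's median log2 fold changes for the siRNA were -0.08, 0.02 and -0.07. The smallest p-values for TGF-β were those of Hnrnpa1 (0.53, adjusted p = 1.5e-10), which opposes exon inclusion, Srsf11 (0.62), Tial1 (0.44) and Elavl1 (0.36). For PDGF-BB they were those of the splice-site factor U2af2 (0.26, adjusted p = 2.8e-05), Hnrnpm (0.24), Hnrnpa1 (0.21) and Srsf9 (0.31). The siRNA raised Fubp1 in unstimulated cells (0.87, adjusted p = 1.6e-11) and with PDGF-BB (0.92, adjusted p = 4.8e-12). It raised Pcbp2 (0.55, 0.43 and 0.36) and Hnrnpf (0.35, 0.41 and 0.34) in all 3 conditions, in the order unstimulated, TGF-β and PDGF-BB. Hnrnph1 fell with the siRNA in unstimulated cells (-0.63), Elavl1 fell (-0.32) and Srsf6 rose (0.37) with TGF-β, and Hnrnpa1 fell with PDGF-BB (-0.35).

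Of 26 genes whose exons these regulators are known to control in smooth muscle, 25 could be tested for transcript usage. In scramble cells edgeR called changed usage in 7 with TGF-β, against 4.53% of all genes, and in 3 with PDGF-BB, against 1.93%. Between the stimuli 7 differed, against 5.17%. For the siRNA it called 6 in each of the 3 conditions, against 5.92% unstimulated, 3.17% with TGF-β and 7.15% with PDGF-BB. In the same order limma called 7, 4, 9, 5, 6 and 6, against 4.4, 1.44, 5.54, 7.09, 3.15 and 9.79% of all genes. Of these limma calls 6, 3, 7, 4, 3 and 4 were also edgeR calls. Cald1, the actin-binding caldesmon whose long form marks contractile cells, passed both tests in all 6 comparisons, with edgeR adjusted p from 1.7e-22 (siRNA with PDGF-BB) to 0.027 (PDGF-BB in scramble cells). Tpm1, a tropomyosin gene, passed both in 5 of 6, with an edgeR adjusted p of 2.8e-14 for TGF-β. For the siRNA its edgeR adjusted p was 8.3e-05 unstimulated, 9.3e-05 with TGF-β and 2.3e-10 with PDGF-BB. Other genes among the smallest edgeR p-values were the matrix gene Fn1 and the myosin light chain Myl6 with PDGF-BB (adjusted p = 5e-06 and 4.2e-05). Actn1, the alpha-actinin gene with a known smooth muscle exon, passed both tests with TGF-β (edgeR adjusted p = 0.0035) and for the siRNA with PDGF-BB (edgeR adjusted p = 5.3e-04). Flna passed both with TGF-β (edgeR adjusted p = 8.8e-04), and Mprip for the siRNA with TGF-β (edgeR adjusted p = 5.5e-04). Of the genes with the smallest edgeR p-values, Mylk with TGF-β (adjusted p = 0.005) and Mef2a in unstimulated cells (adjusted p = 0.0028) passed for the siRNA with edgeR only. So did Actn1 in unstimulated cells (adjusted p = 9e-04) and Flna with PDGF-BB (adjusted p = 0.00025).

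Across the 18 libraries, which share the 6 group differences, the gene with the highest Pearson correlation of log2 CPM was found for each regulator among 10905 genes. For Rbpms2 these were Wdr77 (0.994) and Rps27a (0.992), and for Mbnl1 Uggt2 (0.990) and Zbtb38 (0.989). For Celf2 they were Nid1 (0.984) and Nkain2 (0.974), for Ptbp1 Ankrd1 (0.984) and Mtch1 (0.979), and for Qk Ric1 (0.977) and Ttc39b (0.974). Celf1 was most like Son (0.967) and Tet2 (0.964), Rbpms like Clic4 (0.957) and Cd302 (0.955), Mbnl2 like Tmem64 (0.947) and Fcho2 (0.937), and Rbfox2 like Tjp1 (0.927) and Ddr2 (0.926). Among the regulators themselves the highest correlations were Mbnl1 with Qk (0.860), Rbpms2 with Ptbp1 (0.854) and Rbfox2 with Celf2 (0.808), and the lowest were Mbnl1 with Celf2 and Rbpms2 with Celf1 (both -0.818). Rbpms and its paralog Rbpms2 were at -0.647.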

How the data were processed

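RNA-seq counts of 18 libraries in 6 groups were used. The submitters' processing notes name HISAT2 2.2.1, StringTie 2.1.6 and the mm10 build. The authors deposited estimated counts for 57180 genes and 149132 transcripts, which were rounded here. The members, lists and tests were chosen with earlier results of these data known. Named were the 9 members, their transcripts of at least 10% of a gene's counts in a group, the smallest p-values of each list and the 2 genes most correlated with each member (mean of 5 CPM or more).

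All libraries were fitted together with edgeR 4.0.16 in R 4.3.3 (TMM, filterByExpr with a minimum count of 10, a mean per group, glmQLFTest, 12 residual degrees of freedom, coefficient of variation 6.01%). TMM factors lay between 0.925 and 1.07. Adjustment was over all 15832 genes, or over the 9306 genes of the usage test (diffSpliceDGE on 39762 transcripts). In simulated counts that usage test made too many calls for genes with highly variable transcripts and limma 3.58.1 (diffSplice on voom values) did not, so both are given. Exon positions, transcript models and sequences are from GENCODE M21 (GRCm38), which held 98.88% of transcript counts, 98.44% for Celf2 and 100% for the other members. Alternatives were no low-count filter, DESeq2 1.42.0 or its size factors, summed transcripts, a replicate block, a 1 CPM filter and leaving out each library. Python 3.11.15, pandas 2.3.3, numpy 2.4.6 and matplotlib 3.10.9 were used.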

Additional observations from a re-analysis of the deposited data

Results flagged for a closer look

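For 7 genes the effect of the Itgav siRNA differed between a stimulus and unstimulated cells in a test of that difference (edgeR, adjusted p under 0.05). The TGF-β test called 5 of 9 regulators, against 23.2% of all genes, and the PDGF-BB test 3 of 9, against 18.8%. No share of all genes was found for passing either test. The siRNA effect with TGF-β minus that in unstimulated cells was 0.76 for Rbpms2 on the log2 scale, a smaller fall, and -0.73 for Celf2, a larger fall. For Mbnl1 it was 0.23, for Ptbp1 0.19 and for Rbfox2 -0.22. The calls of Ptbp1 and Rbfox2 were lost when certain single libraries were left out, as given above. With PDGF-BB in place of TGF-β the difference was 0.29 for Mbnl1, 0.30 for Mbnl2 and 0.33 for Qk. The sum of 10 interferon response genes with the Itgav siRNA was 736 to 821 CPM in TGF-β cells and 6550 to 7520 CPM in unstimulated cells. Its part in these differences was not tested.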

How the results depend on the processing

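Of 450 member fold changes under alternatives that kept all libraries, 445 stayed on the same side of the threshold, 3 were lost, 2 were gained (Qk for the siRNA with TGF-β, no low-count filter, and Rbfox2, below) and none changed sign while called. Lost were Celf2 for the siRNA with PDGF-BB (-0.14, adjusted p = 0.054 with DESeq2 size factors and 0.051 with DESeq2) and Ptbp1 for the difference with TGF-β (0.18, no low-count filter). Each of these calls moved its count of members by 1. With a 1 CPM filter changed usage was called for 2 members in place of 1 with TGF-β in scramble cells (Mbnl1 and Celf2) and for the siRNA with TGF-β (Qk and Rbfox2). It was called for 3 in place of 2 for the siRNA unstimulated (Celf2 added) and with PDGF-BB (Rbfox2 added, as with limma). All other counts with every library kept equalled those reported. The replicate numbers did not pair the libraries, since correlations of same-numbered deviations lay between -0.045 and 0.0966 over the comparisons. With a replicate block Rbfox2 gained a call between TGF-β and PDGF-BB (-0.11, adjusted p = 0.028), which made 9 members in place of 8, and the other counts stayed the same.

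Leaving out 1 library in turn, PDGF-BB in Itgav siRNA cells called 1 to 2 members, with 1 without Itgav siRNA unstimulated 1 or 3 or PDGF-BB 2 or 3. The difference of the siRNA effect with TGF-β called 3 to 5, with 3 without Itgav siRNA TGF-β 1. Usage calls ranged from 0 to 1 for TGF-β, 0 to 2 for TGF-β against PDGF-BB, 1 to 3 for the siRNA unstimulated and 1 to 2 for the siRNA with TGF-β. The cause of these ranges was not tested, and each such fit also had a smaller number of libraries. Rbpms2 kept every siRNA call. The isoform estimates are also limited by reads that models share.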
